A study of Mus musculus with 6 samples.

Results

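Red blood cell transcripts were measured in the newborn mouse hippocampus through 7 genes: the adult alpha-globins Hba-a1 and Hba-a2, the adult beta-globins Hbb-bs and Hbb-bt, the embryonic beta-like globin Hbb-y, and the erythroid genes Alas2 and Slc4a1. They were chosen by name, and all 7 were among the 52230 genes in the files. Poly(A)-selected, strand-specific RNA sequencing was done on hippocampi collected on postnatal day 0. The 3 Mov10 Deletion libraries came from mice that carried a LoxP-flanked Mov10 allele, Cre recombinase expressed from Emx1 in the excitatory lineage of neocortex and hippocampus, and a germline mutant Mov10 allele. The 3 wild-type (WT) libraries were made from mice that the study describes as C57BL/6. Each library pooled the hippocampi of at least 2 pups. Emx1 drives Cre in neural cells, so the Cre allele is not a deletion aimed at blood cells, which carry the germline allele. The question here was how much red cell RNA each library held and whether it differed with genotype.

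Hemoglobin joins alpha-like and beta-like globin chains around heme. The genes of each type lie in a cluster, and mice switch from embryonic globins in the first blood cells of the yolk sac to adult globins in red cells made by the fetal liver and later the bone marrow. Red cells lose their nucleus before or soon after they enter the circulation, but young ones still hold globin mRNA, so globin transcripts in a dissected brain region are commonly read as a trace of the blood left in its vessels. Alas2 makes the first precursor of heme in red cells, and Slc4a1 is the chloride-bicarbonate exchanger that ties the red cell membrane to its spectrin skeleton.

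The libraries held between 71400300 and 86207971 estimated counts. Mov10, the targeted gene, measured 2.45, 2.14 and 2.09 CPM (counts scaled to library size with TMM factors) in Mov10 Deletion replicates 1, 2 and 3 and 4.81, 4.75 and 4.80 CPM in WT replicates 1, 2 and 3, a log2 fold change of -1.11 (limma-trend, adjusted p = 0.0011). Mov10 Deletion replicate 1 stood apart in markers of tissue that borders the hippocampus. The 7 choroid plexus markers summed to 116 TPM (abundance scaled by transcript length and depth) there, against 4.25 and 13.97 TPM in the other Mov10 Deletion libraries and 17.2 to 38.4 TPM in WT. The 7 markers of the meninges summed to 179 TPM there and to 57.5 to 81.0 TPM in the other 5 libraries. The tests were also run with each library left out in turn, this one included. The 10 hippocampal neuron markers summed to between 1498 and 1535 TPM in all 6 libraries. Single markers still differed: Zbtb20, Rbfox3 and Snap25 were higher in Mov10 Deletion, at log2 fold changes of 0.28, 0.17 and 0.20. Their adjusted p was 0.0222, 0.0216 and 0.0109 (limma-trend). That is 3 of 10 higher and 0 lower, beside 12.6% and 12.1% of all tested genes.

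The adult copies of each globin type are nearly one sequence, and that limits what a count for 1 copy means. Coding sequences were read from the GRCm39 genome with the GENCODE M39 annotation, with positions counted from 1 at the A of the start codon. Hba-a1 (ENSMUST00000093209.5) and Hba-a2 (ENSMUST00000093207.5) lie on chromosome 11, at 32233186 to 32234504 and 32246168 to 32247320 of the plus strand. Their coding sequences of 429 bases differed at 1 base, C381T from Hba-a1 to Hba-a2 in exon 3 of 3, and encode the same protein. The stretch around this base is shown because it is where the coding sequences of the copies can be told apart, with the differing base in capitals. It runs from chr11:32234329-32234358 in Hba-a1 and chr11:32247146-32247175 in Hba-a2.
Hba-a1: catgcctctctggaCaaattccttgcctct
Hba-a2: catgcctctctggaTaaattccttgcctct

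Hbb-bs (ENSMUST00000023934.9) and Hbb-bt (ENSMUST00000098192.5) lie on the minus strand of chromosome 7, at 103475730 to 103482989 and 103461727 to 103465047. Their coding sequences of 444 bases also differed at 1 base and encode the same protein. The base is C417T from Hbb-bs to Hbb-bt, in exon 3 of 3, and stands in capitals below, at chr7:103475885-103475914 and chr7:103461876-103461905, minus strand.
Hbb-bs: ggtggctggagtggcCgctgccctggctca
Hbb-bt: ggtggctggagtggcTgctgccctggctca
Of all 150-base windows of the coding sequence, the length of a read, 82.5% were shared between the alpha copies and 90.5% between the beta copies. The counts of a single copy therefore rest on the division of shared reads by Salmon, the authors' counting tool, and on transcript ends outside the coding sequence, which were not compared here.

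Hbb-y (ENSMUST00000033229.5, chromosome 7, 103500956 to 103502423, minus strand) can be told from the adult genes throughout. It differed from Hbb-bs at 114 of 444 coding bases, an identity of 74.3%, and shared none of the 150-base windows. Shown is the part of exon 2 at coding positions 213 to 242, where 15 of 30 bases differ and stand in capitals, at chr7:103476728-103476757 and chr7:103502028-103502057, minus strand.
Hbb-bs: CtttAACgaTGGcCtGaaTCaCTtGgacaG
Hbb-y: TtttGGAgaGTCcAtTaaGAaTCtAgacaA

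Adult globins made up between 99.2% and 99.8% of the counts of the globin clusters in every library, and globins as a whole took 0.0212% to 0.0306% of all counts. Compared per length, on the TPM scale, the WT means were 624 ± 78.4 TPM for Hba-a2 (SD, n = 3), 578 ± 70.9 TPM for Hbb-bs, 247 ± 34.5 TPM for Hba-a1 and 100.5 ± 13.3 TPM for Hbb-bt. The erythroid genes were far lower, with 4.81 ± 0.208 TPM for Alas2 and 0.309 ± 0.0458 TPM for Slc4a1, and Hbb-y was lowest at 0.240 ± 0.0864 TPM. In this order the ranges of Hba-a2 and Hbb-bs over the WT libraries overlapped, and so did those of Slc4a1 and Hbb-y, whereas the other neighbours did not overlap. The Mov10 Deletion libraries kept Hba-a1, Hbb-bt, Alas2, Slc4a1 and Hbb-y in the same order of mean TPM, but the mean of Hbb-bs (587 ± 124 TPM) lay above that of Hba-a2 (513 ± 104 TPM). Within libraries, Hbb-bs exceeded Hba-a2 in all 3 Mov10 Deletion libraries, with 730 against 631, 504 against 474 and 528 against 434 TPM. Hba-a2 exceeded Hbb-bs in all 3 WT libraries, with 701 against 652, 544 against 511 and 628 against 570 TPM. This WT order held per length only. In CPM, Hbb-bs lay above Hba-a2 in every library, in WT with 107 against 105, 86.6 against 82.1 and 98.4 against 97.3 CPM. The transcript length behind the TPM of Hba-a2 was 554 bases, against 647 in GENCODE M39, and that of Hbb-bs was 628 against 664.

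Of the 7 genes, Hbb-bt, Hba-a1 and Slc4a1 were lower in the Mov10 Deletion hippocampus, Hba-a2, Hbb-bs and Alas2 did not pass the test, and Hbb-y was too rare to test. A gene was called where the adjusted p (Benjamini-Hochberg over all 16745 tested genes) of limma-trend, with 2 factors of unwanted variation beside genotype, was under 0.05. This call was common: 24.7% of all tested genes were called, 12.1% as lower and 12.6% as higher, with a median fold of 1.19 among called genes. With 3 of 6 tested genes called lower, and few genes tested, the share is given beside this background as a description. In limma-trend without the factors 21.0% of genes were called, and of the 7 genes only Hbb-bt (adjusted p = 0.0319). DESeq2 without factors also called 1 of them, but it was Hba-a1 (adjusted p = 0.0398), not Hbb-bt (adjusted p = 0.0806). In bulk tissue, fewer red cells and less RNA per red cell cannot be told apart.

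**Figure D1:**
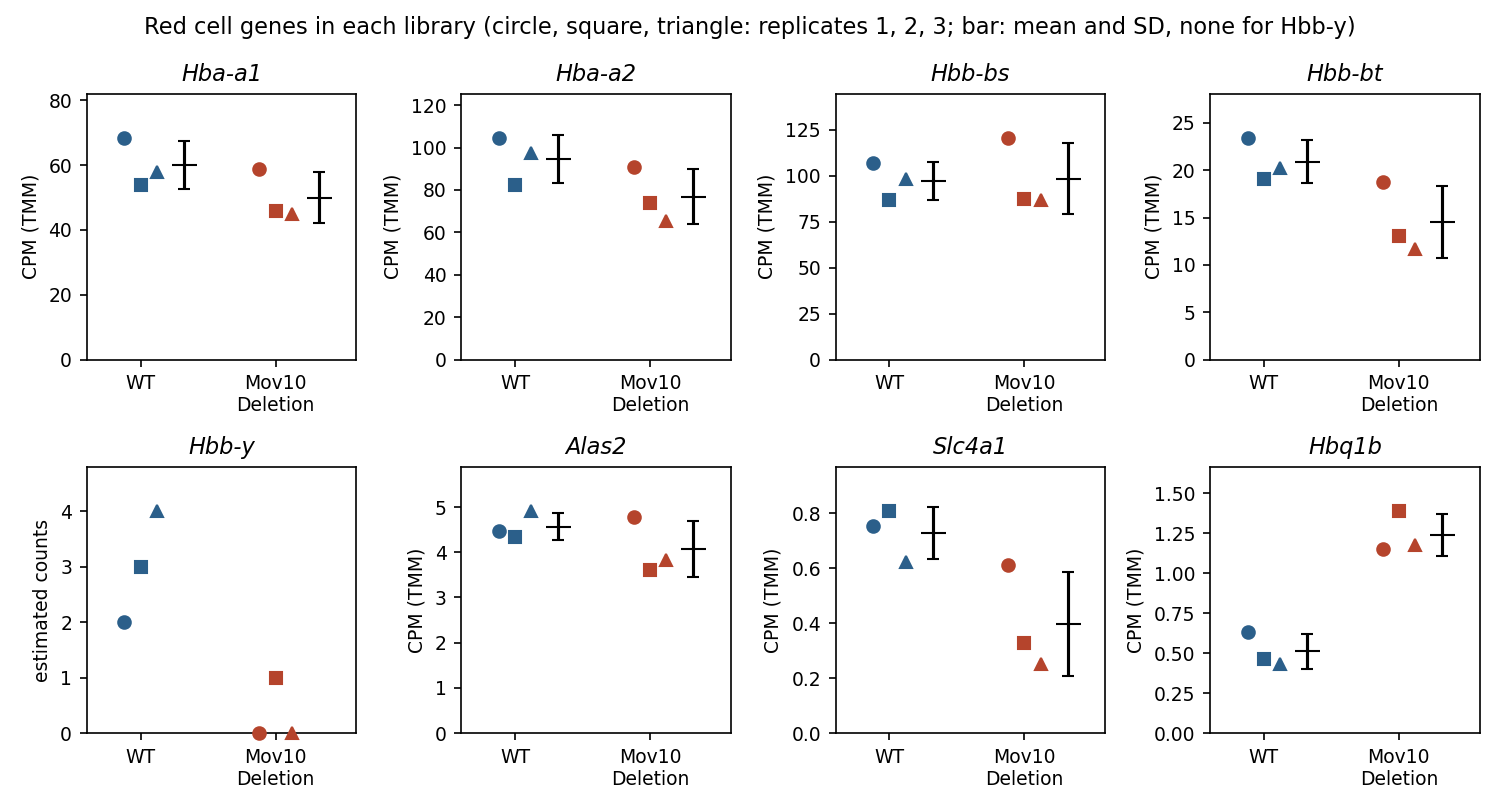
Level of the 6 tested red cell genes and of Hbq1b in CPM (TMM-scaled), and of Hbb-y in estimated counts, in each WT (blue) and Mov10 Deletion (red) library, with symbols for replicates 1, 2 and 3 and black bars for the mean and SD (n = 3, none drawn for Hbb-y). The groups do not overlap for Hbb-bt, Slc4a1, Hbb-y and Hbq1b, with Hbq1b higher and the others lower in Mov10 Deletion, and they overlap for Hba-a1, Hba-a2, Hbb-bs and Alas2.

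Among the alpha-globins, Hba-a1 measured 58.9, 45.9 and 45.0 CPM in Mov10 Deletion replicates 1, 2 and 3 and 68.4, 53.9 and 57.8 CPM in WT replicates 1, 2 and 3. Mov10 Deletion replicate 1 lay above WT replicates 2 and 3, so the groups overlapped. The fitted log2 fold change was -0.33 (SE 0.08, limma-trend, adjusted p = 0.0265), 1.25-fold higher in WT. The call was lost without the factors, where the log2 fold change was -0.27 (limma-trend, adjusted p = 0.108), and without Mov10 Deletion replicate 3 (adjusted p = 0.0594), and without WT replicate 1 the change shrank to -0.20 (adjusted p = 0.0332). It passed in 16 of 22 alternatives, with adjusted p between 0.000116 and 0.174.

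The second alpha-globin, Hba-a2, measured 90.9, 74.0 and 65.6 CPM in Mov10 Deletion and 105, 82.1 and 97.3 CPM in WT. Again only Mov10 Deletion replicate 1 reached into the WT range. The log2 fold change of -0.34 (SE 0.11) was about that of Hba-a1 and did not pass (limma-trend, adjusted p = 0.0552). It passed when any single library other than Mov10 Deletion replicate 3 was left out, with adjusted p between 0.00014 and 0.0249, and gave an adjusted p of 0.128 without that one. Over all 22 alternatives it passed in 8. With the counts of both alpha-globins summed before the fit, which does away with the division of reads between them, the log2 fold change was -0.33 (95% interval -0.55 to -0.11, limma-trend, adjusted p = 0.0408).

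Among the beta-globins, Hbb-bs was the more abundant per length in every library. It measured 121, 87.5 and 87.0 CPM in Mov10 Deletion and 107, 86.6 and 98.4 CPM in WT, and the highest of the 6 values was Mov10 Deletion replicate 1. The log2 fold change was -0.04 (95% interval -0.24 to 0.17, limma-trend, adjusted p = 0.789), and it passed in none of 22 alternatives, 7 of which turned its sign.

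Hbb-bt, the less abundant adult beta-globin, measured 18.8, 13.0 and 11.6 CPM in Mov10 Deletion and 23.4, 19.1 and 20.2 CPM in WT. All Mov10 Deletion libraries lay below all WT libraries, which held for 21.2% of all tested genes, while 41.6% had groups that did not overlap in either direction. The log2 fold change was -0.62 (SE 0.11, limma-trend, adjusted p = 0.00712), 1.53-fold higher in WT. The call held in 20 of 22 alternatives and was lost with DESeq2 without factors (adjusted p = 0.0806) and with no filter on low counts (adjusted p = 0.0633). With both beta-globins summed, no change passed, with a log2 fold change of -0.12 (95% interval -0.33 to 0.08, limma-trend, adjusted p = 0.326).

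Ratios within a library do not depend on its scaling or on the amount of blood as a whole. The ratio of adult alpha-globin to adult beta-globin counts, which also does not depend on how reads were divided between copies, was 1.07, 1.19 and 1.12 in Mov10 Deletion replicates 1, 2 and 3 and 1.32, 1.29 and 1.31 in WT. The groups did not overlap, and the WT libraries spread less (mean 1.31 ± 0.0185) than the Mov10 Deletion libraries (1.13 ± 0.0599). On the TPM scale the ratio was 1.06 to 1.16 in Mov10 Deletion and 1.27 to 1.30 in WT.

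Hbb-bt supplied 13.5%, 13.0% and 11.8% of the adult beta-globin counts in Mov10 Deletion and 17.9%, 18.1% and 17.0% in WT. The groups did not overlap, and a two-sided exact permutation test gave p = 0.1, the smallest p that 3 libraries against 3 allow. This ratio was chosen after its values were seen. By contrast, the share of Hba-a1 among adult alpha-globin counts was 39.3%, 38.3% and 40.7% in Mov10 Deletion and 39.5%, 39.6% and 37.3% in WT, with overlapping groups. The part that the division of near-identical reads had in the Hbb-bt share was not tested. The study made the LoxP-flanked allele in C57BL/6 embryonic stem cells, and later crossed the line to Emx1-Cre and Mov10 mutant mice. The resulting background of the Mov10 Deletion pups at the beta-globin cluster was not stated in the labels or methods read. Hbb-bs and Hbb-bt are the adult genes of the C57BL/6 haplotype, and Hbb-b1 and Hbb-b2, those of another mouse haplotype, were not among the genes matched in the data. The values of Hbb-bs, Hbb-bt and every ratio with them hold for reads assigned to the C57BL/6 genes.

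**Figure D2:**
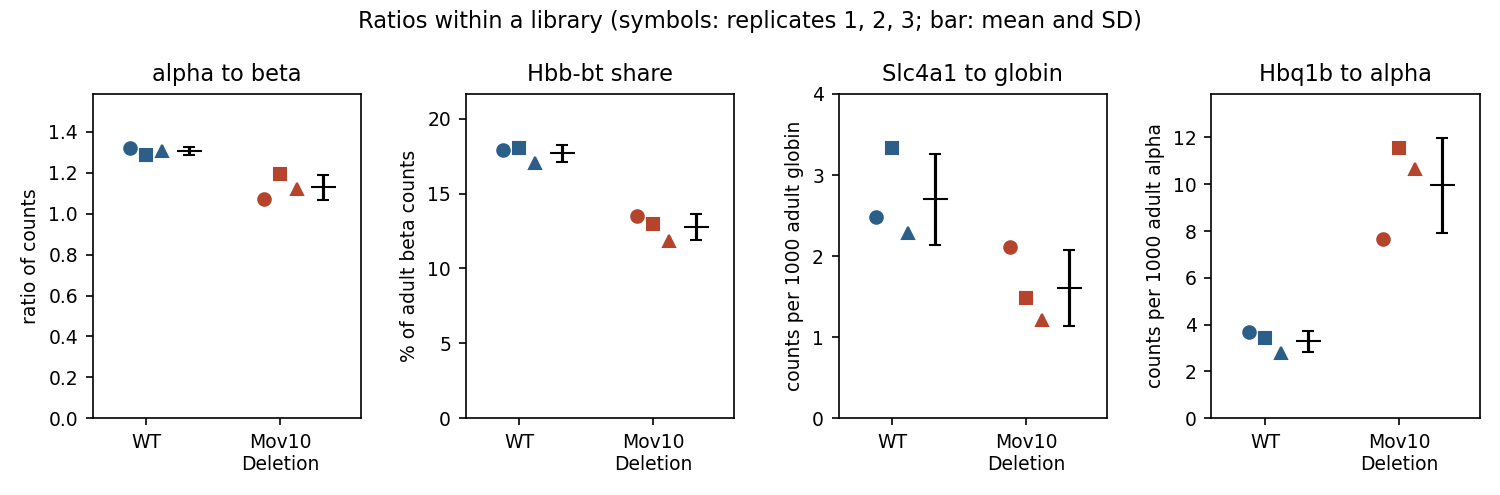
From left to right, the ratio of adult alpha-globin to adult beta-globin counts, Hbb-bt in percent of adult beta-globin counts, Slc4a1 per 1000 adult globin counts and Hbq1b per 1000 adult alpha-globin counts, in each WT (blue) and Mov10 Deletion (red) library, with the mean and SD in black (n = 3). All Mov10 Deletion libraries lie below all WT libraries in the first 3 panels and above them in the last, where they reach 7.68 to 11.6 against 2.80 to 3.67 in WT.

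The counts of all genes of the globin clusters summed to 291, 222 and 211 CPM in Mov10 Deletion (mean 241 ± 43.3) and to 304, 242 and 274 CPM in WT (mean 274 ± 31.0). In each group the library numbered 1 held the most globin, and the groups overlapped. The log2 ratio of the group means was -0.18 and lay between -0.34 and -0.09 when each library was left out in turn. Alpha-globin summed to 111 to 150 CPM in Mov10 Deletion and 136 to 173 CPM in WT, and adult beta-globin to 98.6 to 139 CPM and 106 to 131 CPM.

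Embryonic Hbb-y was at the limit of detection. It had 0, 1 and 0 estimated counts in Mov10 Deletion replicates 1, 2 and 3 and 2, 3 and 4 counts in WT replicates 1, 2 and 3. As a share of beta-like globin counts this was 0%, 0.0130% and 0% in Mov10 Deletion and 0.0178%, 0.0375% and 0.0438% in WT. The groups did not overlap, but the exact (Clopper-Pearson) 95% intervals did: the lowest WT value had an interval of 0.00215% to 0.0642%, and those of Mov10 Deletion replicates 1 and 3, at 0, reached 0.0324% and 0.0524%. Taken as 3 counts of 11396 and 7041, the limit that a count of 0 allows was 0.0263% and 0.0426% there. Intervals and limits cover counting error only. Hbb-y did not pass the filter of 0.25 CPM in at least 3 libraries, and in a fit with no filter, over 29469 genes, it had a log2 fold change of -1.08 (SE 0.26, limma-trend, adjusted p = 0.0854), a size that depends on the prior count. The fit with no filter also ended the calls of Hba-a1, Hbb-bt, Slc4a1 and Hbq1b. In all, Hbb-y had 1 count in the Mov10 Deletion libraries and 9 counts in the WT libraries, and no difference passed the test. The other embryonic globins were rarer still: Hba-x, the embryonic alpha-like gene, had 1 count in WT replicate 3 and 0 elsewhere, and Hbb-bh1 and Hbb-bh2 had 0 counts in all 6 libraries.

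Alas2, on the X chromosome (149330371 to 149353634, plus strand), measured 4.79, 3.61 and 3.83 CPM in Mov10 Deletion and 4.46, 4.34 and 4.90 CPM in WT. Mov10 Deletion replicate 1 lay within the WT range and the other Mov10 Deletion libraries below it. Its log2 fold change was -0.16 (95% interval -0.38 to 0.06, limma-trend, adjusted p = 0.246), and it passed in none of 23 alternatives, over which adjusted p lay between 0.0880 and 0.560. Relative to globin it did not separate the groups, with 16.5, 16.4 and 18.3 counts per 1000 adult globin counts in Mov10 Deletion and 14.7, 18.0 and 17.9 in WT. Of its annotated transcripts, Alas2-201 held 210 to 327 counts and Alas2-202 held 39.8 to 73.9 counts per library.

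Slc4a1 (chromosome 11, 102239650 to 102257029, minus strand) was rare but lower in the Mov10 Deletion hippocampus. It had 50, 25 and 18 estimated counts in Mov10 Deletion and 65, 61 and 48 in WT, or 0.612, 0.327 and 0.252 CPM against 0.755, 0.807 and 0.624 CPM. All Mov10 Deletion libraries lay below WT, as for 21.2% of all tested genes, with replicate 1 close to the lowest WT library. The log2 fold change was -1.02 (SE 0.24, limma-trend, adjusted p = 0.0206), 2.03-fold higher in WT. It passed in 17 of 22 alternatives, but not with low counts left unfiltered (limma-trend, adjusted p = 0.0798). It did not pass without factors, at a log2 fold change of -0.92 (limma-trend, adjusted p = 0.0567), nor by edgeR (adjusted p = 0.0733) or DESeq2 (adjusted p = 0.0883) without factors, and on the log2(TPM + 1) scale, which understates the change of a gene below 1 TPM, it was -0.18 (adjusted p = 0.132).

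Per 1000 adult globin counts, Slc4a1 had 2.12, 1.49 and 1.21 counts in Mov10 Deletion and 2.49, 3.34 and 2.28 in WT, so the groups did not overlap here either. All of its counts were on 1 transcript, Slc4a1-201.

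**Figure D3:**
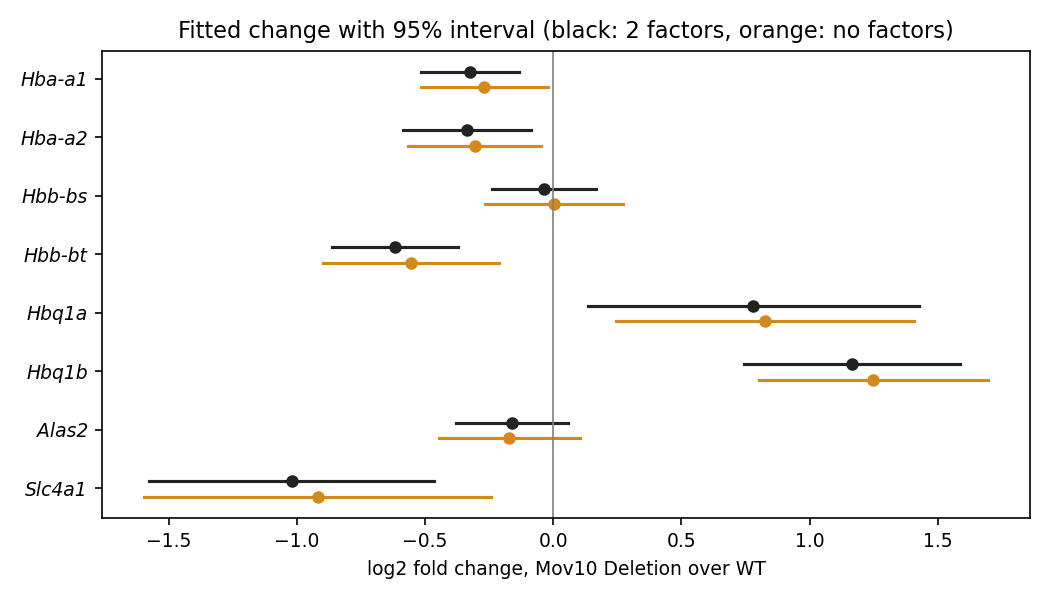
Fitted log2 fold change (Mov10 Deletion over WT) for 8 genes of the globin clusters and of heme and membrane, with 95% intervals, from limma-trend with 2 factors of unwanted variation (black) and without factors (orange). Hbb-bt and Slc4a1 lie furthest to the left at -0.62 and -1.02, Hbb-bs sits at -0.04 and Hbq1b at 1.16.

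Without Mov10 Deletion replicate 1, the library with the most choroid plexus and meningeal RNA, 4 of the 6 tested genes were called lower (limma-trend, with 1 residual degree of freedom). Calls were also more common over all genes in that fit, with 30.9% of 16606 tested genes called and 15.2% called lower. Of the 6 tested genes, 4 were also called lower without Mov10 Deletion replicate 2 or any 1 WT library, and 2 without Mov10 Deletion replicate 3. Backgrounds differed: over all genes, 2988 of 16603 were called lower without Mov10 Deletion replicate 2 and 2160 of 16573 without replicate 3. Without WT replicates 1, 2 and 3 these were 2246 of 16647, 1147 of 16643 and 2387 of 16645. Equal counts therefore stand beside unlike shares and are given as a description. Without Mov10 Deletion replicate 1, the log2 fold changes were -0.42 for Hba-a1 (adjusted p = 0.00139), -0.44 for Hba-a2 (adjusted p = 0.00134), -0.79 for Hbb-bt (adjusted p = 4.3e-05) and -1.32 for Slc4a1 (adjusted p = 0.0032). Hbb-bs at -0.16 (adjusted p = 0.101) and Alas2 at -0.26 (adjusted p = 0.0880) did not pass.

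Hbq1b, a theta-like globin of the alpha cluster, was higher in the Mov10 Deletion hippocampus. Hbq1b (chromosome 11, 32236914 to 32237912, plus strand), between Hba-a1 and Hba-a2, measured 1.15, 1.39 and 1.18 CPM in Mov10 Deletion and 0.635, 0.465 and 0.434 CPM in WT. Every Mov10 Deletion library lay above every WT library, while 41.6% of all tested genes had groups that did not overlap in either direction. The log2 fold change was 1.16 (SE 0.18, limma-trend, adjusted p = 0.00515), and the call held in 21 of 22 alternatives, failing with no filter on low counts (adjusted p = 0.0564). Relative to adult alpha-globin it gave 7.68, 11.6 and 10.6 counts per 1000 in Mov10 Deletion and 3.67, 3.42 and 2.80 in WT.

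Hbq1b does not share reads with the adult alpha-globins: it differed from Hba-a1 at 143 of 429 coding bases, an identity of 66.7%, with no shared 150-base window. Shown are coding positions 12 to 41 in exon 1, where 19 of 30 bases differ and stand in capitals, at chr11:32233718-32233747 and chr11:32237024-32237053, plus strand.
Hba-a1: TGGggaAgaCAaAAgCAACAtcAAGgcTGC
Hbq1b: CCAggaTgaTCaGTgGCTGGtcCTTgcGCT
Its own near copy Hbq1a (32250067 to 32254086), with 93.8% identity over the aligned coding sequence, measured 0.299, 0.394 and 0.322 CPM in Mov10 Deletion and 0.190, 0.197 and 0.151 CPM in WT. Every Mov10 Deletion library again lay above WT, at a log2 fold change of 0.78 (SE 0.28, limma-trend, adjusted p = 0.0765), which did not pass. Hbq1a entered the test only through its Mov10 Deletion values, since no WT library reached the filter's 0.25 CPM, so its direction was fixed by that filter. Over all 6 tested genes of the globin clusters, 1 was called higher and 2 lower, beside 12.6% and 12.1% of all tested genes. Their median log2 fold change of -0.18 includes Hbq1a, so it is not set against the median of all genes.

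On lists of genes that build heme, bring in iron and shape the red cell, calls were about as common as over all genes. Of 64 genes on 5 further red cell lists, Alas2 and Slc4a1 among them, 46 could be tested, and 4 were called higher and 7 lower. That is 23.9% called, beside 24.7% of all tested genes, so this count does not set the red cell lists apart. Most of these genes are used by many cell types besides red cells.

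In heme synthesis, 1 of 9 tested genes was called higher and 1 lower, with a median log2 fold change of 0.03. Uros, which closes the porphyrin ring, rose by 0.35 (limma-trend, adjusted p = 0.0062), from 12.7 to 14.9 CPM in WT to 16.9 to 18.0 CPM in Mov10 Deletion. Fech, which inserts iron into the ring, had a log2 fold change of -0.14 (limma-trend, adjusted p = 0.0487), with 47.2 to 48.7 CPM in Mov10 Deletion and 52.1 to 56.9 CPM in WT. The call of Fech held in 16 of 23 alternatives and was lost without Mov10 Deletion replicate 3 (adjusted p = 0.0821) and without WT replicate 2 (adjusted p = 0.0993). For neither Uros nor Fech did the groups overlap, which held for 41.6% of all tested genes. Alas1, the housekeeping counterpart of Alas2, measured 69.6 ± 1.29 TPM in Mov10 Deletion and 66.4 ± 6.32 TPM in WT, well above Alas2 on the same scale.

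In iron uptake and mitochondrial transport, 1 of 11 tested genes was called. Slc25a37 (mitoferrin), which carries iron into mitochondria, rose by 0.46 on the log2 scale (limma-trend, adjusted p = 0.0107), from 4.98 to 6.69 CPM in WT to 7.68 to 8.65 CPM in Mov10 Deletion. Tfrc, the transferrin receptor, was at 112 to 124 CPM in Mov10 Deletion and 116 to 125 CPM in WT (log2 fold change -0.04, limma-trend, adjusted p = 0.599).

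Among 11 tested membrane genes, Slc4a1 and Epb41 were called lower and none higher. Epb41, a spectrin-binding protein that neurons also make, had a log2 fold change of -0.15 (limma-trend, adjusted p = 0.032) and ranged from 168 to 201 CPM in Mov10 Deletion and 204 to 235 CPM in WT. This call held in 15 of 23 alternatives and was lost without factors (adjusted p = 0.0785) and without Mov10 Deletion replicate 1, at a log2 fold change of -0.09 (adjusted p = 0.0705). Of the transcription factors, Lmo2 was lower (log2 fold change -0.28, limma-trend, adjusted p = 0.0127) and Zfpm1, a partner of GATA factors, higher with overlapping groups (0.23, limma-trend, adjusted p = 0.0489). The call of Zfpm1 held in only 12 of 23 alternatives and was lost without factors (adjusted p = 0.279). Klf1, the activator of adult beta-globin, was at 0.350 to 0.471 CPM in Mov10 Deletion and 0.403 to 0.503 CPM in WT (log2 fold change -0.17, limma-trend, adjusted p = 0.624).

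Of 9 other tested red cell genes, Tspan33 (-0.33, limma-trend, adjusted p = 0.0114), Bnip3l (-0.24, adjusted p = 0.0037) and Mkrn1 (-0.20, adjusted p = 0.0072) were lower on the log2 scale. Bnip3l takes part in clearing mitochondria from maturing red cells and in other cells. It measured 140 to 145 CPM in Mov10 Deletion and 164 to 179 CPM in WT. The groups did not overlap, as in 41.6% of all tested genes.

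**Figure D4:**
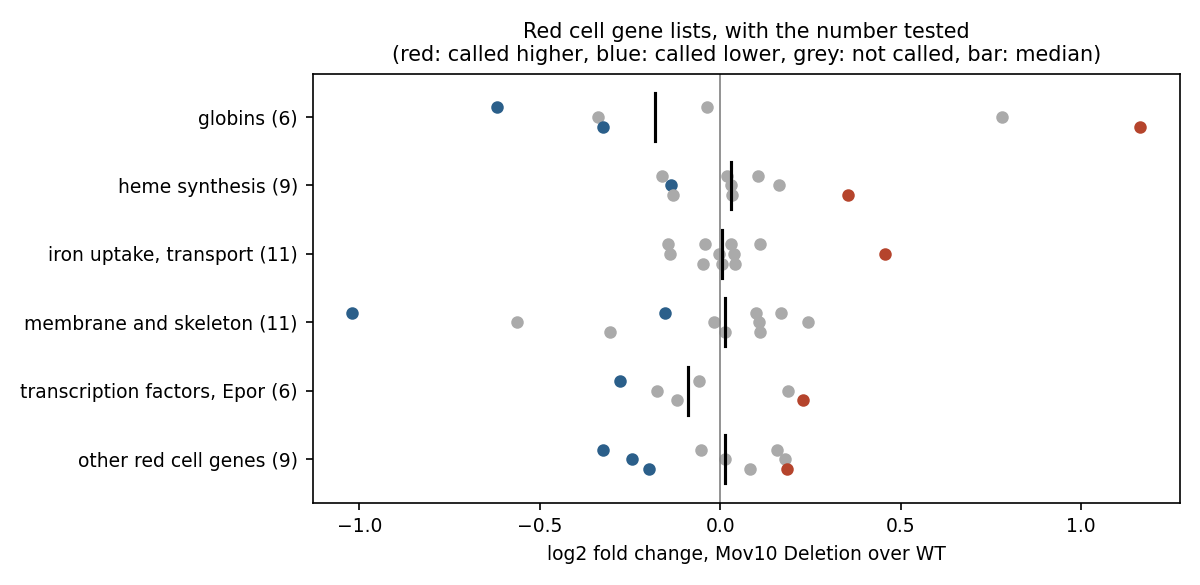
Log2 fold change (Mov10 Deletion over WT) for each tested gene on 6 red cell lists, with the number of tested genes in brackets, red and blue points for genes called higher and lower (limma-trend, adjusted p under 0.05), grey points for the rest and a black bar at the median. The globin list spans the widest range to the right, up to Hbq1b at 1.16, and the medians of the other 5 lists lie between -0.09 and 0.03. The globin list includes Hbq1a, which entered the test only through its Mov10 Deletion values.

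Genes restricted to nucleated red cell precursors were nearly absent. Gata1, the erythroid master factor, had 0 to 2 counts per library, Gfi1b had 0 in all, Rhag 0 to 2, Kel 0 to 2 and Epb42 1 to 5. Globins of other tissues showed no change that passed in 3 tested genes: Cygb was at 39.4 to 43.6 CPM in Mov10 Deletion and 41.4 to 48.3 CPM in WT (log2 fold change -0.01, limma-trend, adjusted p = 0.885), and neuronal Ngb was at 1.13 to 2.16 CPM and 1.56 to 1.76 CPM (-0.0042, adjusted p = 0.986).

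Among markers of other blood cells none was called, and those of vessels gave 1 call in 12 endothelial genes and 3 in 8 pericyte and smooth muscle genes, beside 24.7% of all tested genes. The 10 platelet markers summed to 29.0, 19.5 and 17.1 TPM in Mov10 Deletion and 14.4, 18.2 and 16.8 TPM in WT, with none of 4 tested genes called. The 12 neutrophil and monocyte markers summed to 12.2 to 14.4 TPM and 11.3 to 13.0 TPM, and the 11 lymphocyte markers to 3.63 to 4.54 TPM and 2.58 to 3.61 TPM, with none called of 2 and 1 tested. The 12 endothelial markers summed to 255, 198 and 208 TPM in Mov10 Deletion and 248, 249 and 231 TPM in WT. Of these Cldn5, a tight junction protein of brain vessels, was called lower (log2 fold change -0.39, limma-trend, adjusted p = 0.0015), with 43.6 to 56.1 CPM against 60.2 to 64.8 CPM. Of 8 pericyte and smooth muscle genes, 3 were called: Rgs5 was higher by 0.20 (limma-trend, adjusted p = 0.00647) and Kcnj8 by 0.45 (adjusted p = 0.018) on the log2 scale, and Pdgfrb was lower at -0.18 (adjusted p = 0.0253). Without factors the calls of Kcnj8 (adjusted p = 0.0588) and Pdgfrb (adjusted p = 0.0912) were lost.

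Genes that clear hemoglobin, heme and iron gave 1 call in 9 tested genes. Lrp1, a receptor for many ligands that include bound heme, was higher with overlapping groups (log2 fold change 0.24, limma-trend, adjusted p = 0.032), and Hmox1, the heme-degrading enzyme, was at 4.52 to 5.95 CPM in Mov10 Deletion and 3.91 to 6.73 CPM in WT (adjusted p = 0.983). Of the border tissue markers that set Mov10 Deletion replicate 1 apart, Ttr was called lower although that library held the highest value of all 6 (45.6 CPM there, 0.786 and 3.75 CPM in the other Mov10 Deletion libraries and 5.10 to 13.4 CPM in WT). Its direction turned without the factors in edgeR and DESeq2. The part that vessels, border tissue or dissection had in the globin values was not tested.

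Outside the gene lists, the genes whose profile over the 6 libraries was most like that of the adult globins were ranked by the root mean square difference of centred log2 CPM from the mean of Hba-a1, Hba-a2, Hbb-bs and Hbb-bt, among the 14426 tested genes that averaged 1 CPM or more. That mean profile was 0.17, -0.25 and -0.34 in Mov10 Deletion and 0.31, -0.02 and 0.13 in WT on the log2 scale. The nearest were Spdl1 (0.0575), Sertad3 (0.0613), Rab39 (0.0630), Serpinb6b (0.0671), Ndc80 (0.0763) and Sox18 (0.0769), in log2 units. Spdl1 and Ndc80 act at the kinetochore in cell division, and Sox18 is a transcription factor of vessel endothelium. None of the 6 was called, with adjusted p between 0.0507 (Sertad3) and 0.150 (Sox18) by limma-trend. Alas2 stood at rank 76 in this order, Hbb-bs at 171 and Hbb-bt at 206, so genes outside the lists lay closer to the mean profile than either beta-globin that entered it.

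**Figure D5:**
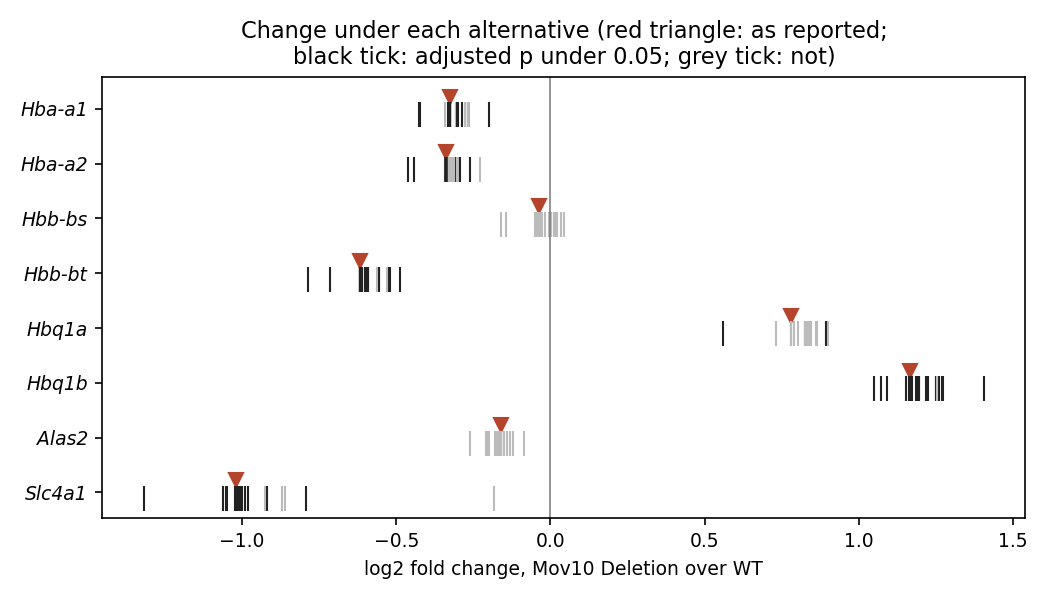
Log2 fold change (Mov10 Deletion over WT) for 8 genes as reported (red triangles) and under each alternative (ticks, black where the adjusted p was under 0.05 and grey elsewhere). Hbb-bt and Hbq1b keep their call in 20 and 21 of 22 alternatives, Hba-a2 passes in 8 of 22, and Hbb-bs and Alas2 pass in none.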

How the data were processed

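Transcripts were quantified by the authors with Salmon 1.4.0, a decoy-aware index and GRCm39 (annotation release: not given in the sources used here). Deposited files give, per transcript, estimated counts that are not normalized, TPM values that the authors' tool scaled by length and depth, and the effective lengths behind them, which were not used further. Of 139225 transcripts, 137570 matched GENCODE M39 by identifier, and the unmatched ones held 0.589% to 0.600% of counts. Counts were summed per gene. Of 29469 genes with any count, 16745 reached 0.25 CPM in 3 or more libraries and were tested by limma-trend (limma 3.58.1, edgeR 4.0.16, R 4.3.3) on TMM-scaled log2 CPM with a prior count of 2 and genotype plus 2 factors of unwanted variation, which follows the study's methods. RUVs was assumed for these factors, since the study does not name the function, and was written out in R with all tested genes as controls. This left 2 residual degrees of freedom, with 5.89 prior ones. The factors come from the same libraries, so p-values measure only the spread between pools that they left. CPM values printed are not corrected for the factors. Counts were rounded for edgeR and DESeq2 1.42.0, run as alternatives. The gene test was also run on simulated data with far fewer changed genes and a single unwanted factor. That run does not measure how often calls in these data are false.

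Groups came from the sample titles. The 7 genes and all gene lists were chosen with earlier results of these data known. Besides the 7 genes, the rule took every globin gene with a count, called members of the red cell lists (or the most abundant where none was called), the 2 most abundant and any called members of other cell type lists, Mov10, and the 6 genes most like the adult globins. Not every gene the rule takes is printed, some list genes that are counted are not reported here by name, and a few further list genes (Gata1, Gfi1b, Rhag, Kel, Epb42, Klf1, Tfrc, Alas1, Hmox1) were chosen after their values were seen. No protein sequence was used here. Alternatives covered the factors, scaling, filter, prior count, tool, summed copies and each library left out.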

Additional observations from a re-analysis of the deposited data

How the results depend on the processing

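The count of the 7 genes called lower (3 as reported) was 1 without factors, with edgeR or DESeq2 without factors, with a filter of 1 CPM and on the log2(TPM + 1) scale, and 0 with no filter by limma-trend. The 1 gene was Hba-a1 with DESeq2 and Hbb-bt in the others. It lay between 2 and 4 with each library left out in turn, and none of the 7 was called higher under any alternative. Over all genes, 445 were called higher and 480 lower with no filter, and 919 and 1189 on the log2(TPM + 1) scale. With 1 library left out, 1656 to 2809 were called higher and 1147 to 2988 lower, the fewest without WT replicate 2. The share of calls that were higher was 50.9% as reported, 60.9% with upper-quartile scaling, 59.1% without WT replicate 2 and 43.6% for log2(TPM + 1). Hbb-bs turned its sign, to 0.0024 without factors, 0.015 with edgeR and 0.012 with DESeq2 without factors, and 0.022, 0.035 and 0.043 without Mov10 Deletion replicate 2, Mov10 Deletion replicate 3 and WT replicate 1. With each library left out it lay between -0.16 and 0.043, and it did not pass in any of these. Ttr turned to 0.74 and 0.73 with edgeR and DESeq2 without factors. The causes were not tested. The log2 ratio of summed globin CPM lay between -0.34 and -0.09 with each library left out, that of alpha to beta counts between -0.25 and -0.17, that of the Hbb-bt share between -0.51 and -0.42, and the difference in Hbb-y share between -0.0363 and -0.0233 percentage points. Leaving out a Mov10 Deletion library took Hbq1a out of the test, so no such value is given for it, and Slc4a1 and Hbq1a could not be fitted with the 1 CPM filter.

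Over all genes, replicate numbers gave no sign of pairing. The deviations of same-numbered libraries from their group means correlated at 0.0114, -0.0711 and 0.0432 over 16745 genes. Differently numbered libraries gave -0.0950 to 0.103. With 3 libraries per group this cannot exclude pairing. With a replicate block and no factors, 4 of the 7 genes were called lower (limma-trend, adjusted p = 0.0100 for Hba-a1, 0.0274 for Hba-a2, 0.00637 for Hbb-bt and 0.0408 for Slc4a1), Hbb-bs stood at 0.0024, and 1857 genes were called higher and 1568 lower. The block ended the calls of Fech (adjusted p = 0.0642), Zfpm1 (0.256), Kcnj8 (0.0633), Pdgfrb (0.0909) and Ttr (0.476). Depth is low for Hbb-y, Slc4a1 and Hbq1a, with at most 4, 65 and 30.1 counts in a library.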
